A study of Mus musculus with 6 samples.

Results

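Leukocytes leave the blood in steps, and 7 genes of this adhesion system were examined in mouse bladder tumours that had been treated with an anti-PD-1 antibody: Vcam1, Icam1, Icam2, Sele, Selp, Selplg and Madcam1. They were found by symbol among 22063 genes in the deposited table, and all 7 were present once. The set was chosen by its shared role in leukocyte adhesion and on measured values, because Vcam1 was among the genes of smallest p when non-responsive and responsive tumours were compared (the third smallest of 14505 genes tested). The group differences of the 7 genes are therefore given as a description with standard errors, and test calls on them are not used as evidence. Of the 7, 6 passed edgeR's filter on low counts and Madcam1 did not.

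The samples were 6 bladder tumours from female mice, taken from an immunocompetent model in which bladder cancer arises spontaneously. All of the mice had been given an anti-PD-1 antibody once tumours were present, so there was no untreated group. PD-1 restrains T cells, and its blockade can release their activity. By the labels 3 tumours were non-responsive (BCa_NR, here NR1, NR2 and NR3 by replicate number) and 3 responsive (BCa_R, here R1, R2 and R3). The labels name no strain, allele, age or time of sampling, and they do not say whether the tumours of a group came from separate mice, so the spread between replicates may be partly technical.

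Selectins on activated endothelium (E-selectin from Sele, P-selectin from Selp) slow leukocytes by binding sugar-bearing ligands such as PSGL-1, the product of Selplg. Chemokines then activate leukocyte integrins, which bind immunoglobulin-superfamily receptors on the vessel wall and bring the cell to arrest. VCAM-1 binds the alpha4 integrins, ICAM-1 and ICAM-2 bind the beta2 integrins, and MAdCAM-1 binds alpha4-beta7 integrin in vessels of the gut. Selplg is itself carried by leukocytes and not mainly by endothelium, and Vcam1 and Icam1 are also made by stromal cells and macrophages.

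Total counts were between 15046180 and 23917398 per tumour. Levels are given as CPM, the count scaled by library size, after TMM scaling, which also corrects for composition, and levels of different genes are compared only as FPKM, which is also scaled for gene length. Endothelial markers, a list of 15 genes such as Pecam1 and Cdh5, were all detected in all tumours. Their summed level was 459, 1553 and 1294 CPM in NR1, NR2 and NR3, and 619, 500 and 419 CPM in R1, R2 and R3. NR1 thus lay within the responsive range for endothelial markers, and the other non-responsive tumours lay above it. All 15 had log2 differences above 0, non-responsive minus responsive. At an unadjusted edgeR p under 0.05, 7 were higher (0 without NR2, 15 without NR1) and 0 lower, against 6.79% of all genes higher. Epithelial markers were detected in every tumour, with a sum of 1909 to 9918 CPM in the non-responsive and 4153 to 5756 CPM in the responsive group. Most of the highest sum was from the keratin gene Krt5, at 8266 CPM in NR1. The median log2 difference of the 9 epithelial markers, non-responsive minus responsive, was -1.999, with 6 of 9 below 0. At an unadjusted edgeR p under 0.05, 5 of 9 were lower and 0 higher. The lower genes were Krt8, Krt18 and the uroplakin genes Upk1b, Upk2 and Upk3a (-3.42 for Upk3a). Of all genes, 5.79% were lower at that p. The epithelial markers did not move together, since Epcam (0.34), Krt5 (0.66) and Krt20 (1.54) had log2 differences above 0, all with overlap. Without NR1, Epcam stayed above 0 (0.25), while Krt5 (-0.66) and Krt20 (-2.30) were below it. The median of the epithelial markers was -2.45 without NR1 and -1.99 without NR2. Whether the epithelium as a whole was reduced was not tested. The part of the epithelium in the adhesion values was not tested. In such bulk tissue, fewer cells of a type and less RNA per cell cannot be told apart.

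Vcam1 (ENSMUSG00000027962; GRCm38, chromosome 3, 116109949 to 116129688, minus strand) encodes the endothelial and stromal ligand of alpha4 integrins. It stood at 100.5, 110.9 and 115.1 CPM in NR1, NR2 and NR3, and at 39.5, 40.2 and 49.0 CPM in R1, R2 and R3. The groups did not overlap, and the spread within each was small, with the highest tumour at 1.15 times the lowest in the non-responsive and 1.24 times in the responsive group. The means were 109 ± 7.56 and 42.9 ± 5.27 CPM (SD, n = 3), and the log2 difference was 1.34 ± 0.18 (SE), or 2.54-fold. The counts behind these values were 1516, 1892 and 2486 against 875, 634 and 1189. Leaving out any 1 tumour gave log2 differences of 1.28 to 1.45.

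Icam1 (ENSMUSG00000037405; chromosome 9, 21015985 to 21028817, plus strand) encodes the main ligand of the beta2 integrins and is a textbook target of NF-kB and of interferon gamma. Its values were 44.9, 82.3 and 47.3 CPM in NR1, NR2 and NR3, and 40.7, 47.6 and 42.8 CPM in R1, R2 and R3. NR2 alone was high, and the other 5 tumours lay between 40.7 and 47.6 CPM. The group means were 58.2 ± 20.9 and 43.7 ± 3.53 CPM (SD, n = 3), with a log2 difference of 0.41 ± 0.27 (SE). Without NR2 the difference was 0.096 ± 0.19.

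Icam2 (ENSMUSG00000001029; chromosome 11, 106377656 to 106388075, minus strand) encodes a beta2 integrin ligand that resting endothelium already carries. It was at 5.70, 19.1 and 13.0 CPM in NR1, NR2 and NR3, and at 6.87, 7.997 and 3.87 CPM in R1, R2 and R3. NR2 and NR3 were above every responsive tumour, while NR1 was within the responsive range. The means were 12.6 ± 6.72 and 6.25 ± 2.13 CPM (SD, n = 3), and the log2 difference was 1.02 ± 0.50 (SE). It was 1.36 without NR1 and 0.61 without NR2.

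Sele (ENSMUSG00000026582; chromosome 1, 164048234 to 164057677, plus strand) encodes E-selectin, which endothelium makes after inflammatory activation. It was at 1.13, 7.04 and 2.59 CPM in NR1, NR2 and NR3, and at 2.48, 1.97 and 7.75 CPM in R1, R2 and R3. One tumour of each group was high, NR2 and R3, and the groups overlapped throughout. The counts were low, between 17 and 188 per tumour, and the log2 difference of -0.19 ± 0.80 (SE) had no stable sign, being 0.67 when R3 was left out, 0.23 when NR1 was and -1.10 when NR2 was.

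Selp (ENSMUSG00000026580; chromosome 1, 164115264 to 164150026, plus strand) encodes P-selectin, which endothelial cells and platelets store in granules. It was at 13.9, 33.4 and 19.5 CPM in NR1, NR2 and NR3, and at 21.2, 19.9 and 14.3 CPM in R1, R2 and R3. Again NR2 was highest, and the other 5 tumours of both groups were mixed between 13.9 and 21.2 CPM. The means were 22.2 ± 10.02 and 18.5 ± 3.65 CPM (SD, n = 3). The log2 difference was 0.27 ± 0.36 (SE), and -0.13 without NR2. Among platelet markers, the receptor genes Gp1ba, Gp1bb, Gp9 and Treml1 did not pass the filter, and Gp9 was at 0 in 3 of 6 tumours. Summed platelet markers were at 467 to 1386 CPM in the non-responsive and 229 to 1285 CPM in the responsive group, nearly all from the chemokine gene Ppbp, and their part in the Selp values was not tested.

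Selplg (ENSMUSG00000048163; chromosome 5, 113818536 to 113832644, minus strand) was at 59.5, 89.1 and 40.5 CPM in NR1, NR2 and NR3. In R1, R2 and R3 it was at 36.7, 60.8 and 21.6 CPM. The groups overlapped, with R2 above 2 of the non-responsive tumours. The means were 63.0 ± 24.5 and 39.7 ± 19.8 CPM (SD, n = 3), with a log2 difference of 0.67 ± 0.43 (SE). It was 1.11 without R2, 0.37 without R3 and 0.35 without NR2, and 0.18 by limma-voom with quality weights on all 6 tumours.

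Madcam1 (ENSMUSG00000020310; chromosome 10, 79664559 to 79668537, plus strand), the addressin of gut vessels, had counts of 1, 6 and 9 in NR1, NR2 and NR3 and of 2, 0 and 2 in R1, R2 and R3. The limit used for absence is 3 counts, an approximate upper bound on the expected count when 0 are observed. It is worth 0.124 to 0.199 CPM here and covers counting error only. Madcam1 exceeded that limit in NR2 and NR3, at 0.352 and 0.417 CPM. No group difference was fitted for it, since it did not pass the filter.

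**Figure D1:**
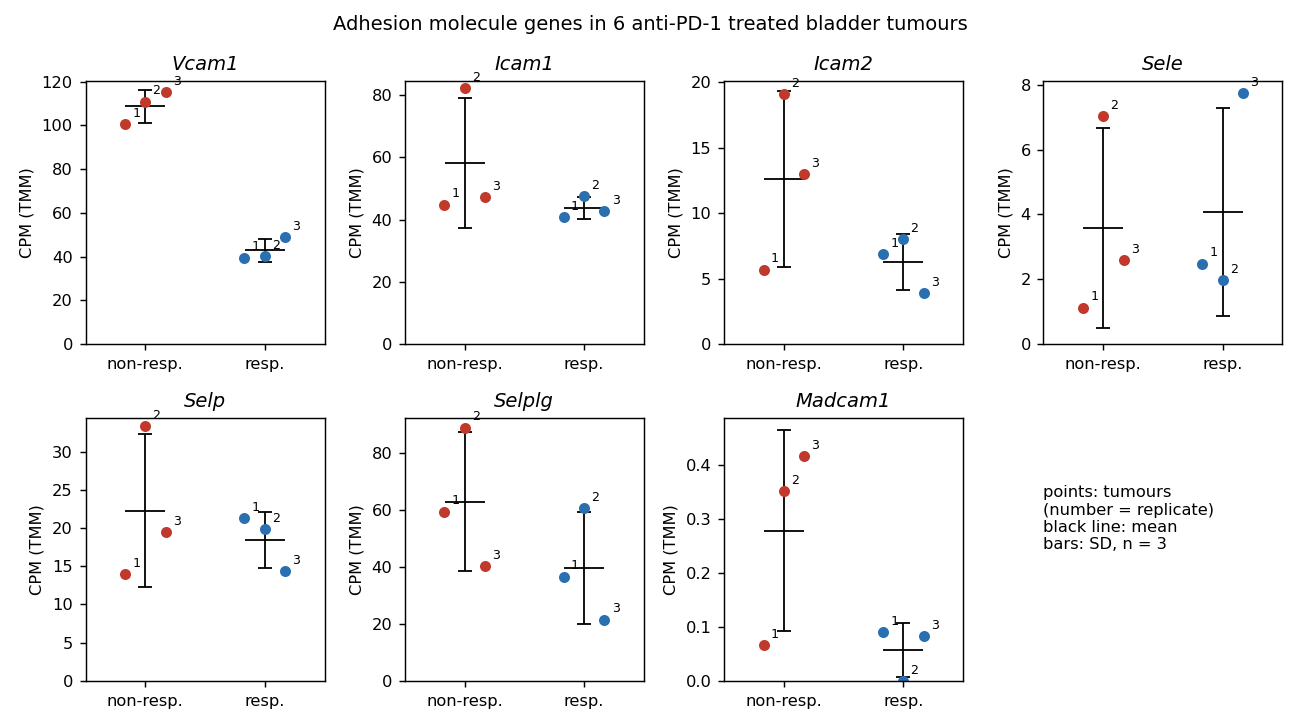
Each panel plots 1 gene in TMM-scaled CPM on a linear axis from 0, with 1 point per tumour numbered by replicate, the group mean as a black line and the SD as bars (n = 3). Vcam1 separates the groups (100.5 to 115.1 against 39.5 to 49.0 CPM), and in the Icam1, Icam2, Selp and Selplg panels NR2 is the highest tumour.

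Of the 6 genes that passed the filter, 5 had a log2 difference above 0, with a median of 0.54. Over all 14505 genes tested, 51.0% were above 0 and the median was 0.014. Without NR2 the median of the 6 was 0.22 and 4 were above 0, and without NR1 it was 0.63 and 6 were above 0. Vcam1 alone had all 3 non-responsive tumours above all 3 responsive ones, as did 9.58% of all genes, while 8.08% lay entirely below. None of the 6 passed the edgeR quasi-likelihood test at an adjusted p of 5%, as 0% of all genes did. By DESeq2, which called 1.45% of the genes it adjusted as higher in non-responsive tumours, Vcam1 was called and the other 5 were not. With NR1 left out, the only tumour left out of DESeq2 and a choice made after seeing the data, DESeq2 called 6.39% of genes as higher. In that run Icam2 was called beside Vcam1, with a log2 difference of 1.35. NR1 was the lowest non-responsive tumour for Icam2, so leaving it out raises that difference by construction. These counts repeat the contrast on which Vcam1 was selected and are no separate evidence on Vcam1 or the other members.

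**Figure D2:**
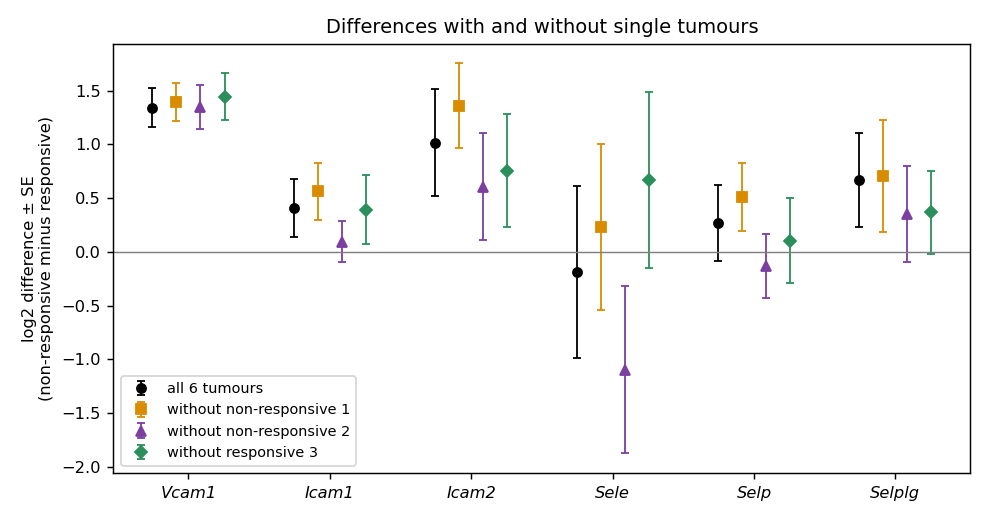
The y axis gives the log2 difference (non-responsive minus responsive) with its standard error from edgeR for the 6 genes that passed the filter, with all tumours and without each of 3 single tumours. Vcam1 stays between 1.34 and 1.45 in these 4 fits, while Sele ranges from -1.10 to 0.67 and Selp from -0.13 to 0.51.

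By length-scaled level (FPKM), Selplg, Vcam1 and Icam1 took the first 3 places in every tumour. Their means over the 6 tumours were 29.0, 23.4 and 20.5 FPKM. Icam2 and Selp followed at 8.75 and 6.05 FPKM, Sele was sixth in every tumour at 1.35 FPKM and Madcam1 was last at 0.137 FPKM. The order within the first 3 differed between tumours. Vcam1 exceeded Icam1 in the 3 non-responsive tumours, with a Vcam1 to Icam1 ratio of 1.72, 1.01 and 1.88, and was below it in the 3 responsive tumours, at 0.763, 0.640 and 0.885. In the non-responsive group the mean FPKM was 34.0 ± 6.30 for Vcam1 and 24.2 ± 11.2 for Icam1, and in the responsive group 12.8 ± 2.08 and 16.8 ± 1.31 (SD, n = 3). Selplg, Vcam1 and Icam1 overlapped in the non-responsive group. In the responsive group Icam1 lay above Vcam1 without overlap and Selplg overlapped both, and Icam2 and Selp overlapped in both groups. E-selectin and P-selectin transcripts did not keep a fixed proportion, since the Selp to Sele ratio was 4.06 to 10.6 in the non-responsive tumours, 7.32 and 8.64 in R1 and R2, and 1.58 in R3.

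Set against markers of the cells that carry them, Icam2 and Selplg differed little between the groups, and Vcam1 was high in a tumour with few endothelial transcripts. Measured as log2 CPM minus the mean log2 CPM of the 15 endothelial markers, Icam2 lay between -2.23 and -1.92 in the non-responsive and between -2.41 and -1.52 in the responsive tumours. The group means on this relative scale were -2.05 ± 0.16 and -2.03 ± 0.46 (SD, n = 3), a difference of -0.018. The edgeR log2 difference of Icam2 was 1.02, a model estimate and not a difference of mean log2 CPM, so these values compare only roughly. Vcam1 on the relative scale was at 2.20, 0.53 and 0.91 in NR1, NR2 and NR3. It was at 0.35, 0.79 and 1.21 in R1, R2 and R3, so the groups overlapped. The group difference of Vcam1 was 0.43 on this scale, and NR1 stood above the other 5 tumours. In that tumour Vcam1 was at 100.5 CPM while Pecam1 was at 80.4 CPM and Cdh5 at 52.4 CPM, within the responsive ranges of 67.3 to 95.9 and 36.8 to 69.0 CPM. Relative to endothelial markers the differences of Icam1, Selp and Sele were -0.56, -0.73 and -1.20. How much of each transcript came from endothelium was not tested.

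Selplg was set against 6 pan-leukocyte markers such as Ptprc (CD45). Its log2 CPM minus their mean was -1.09, -1.31 and -1.25 in NR1, NR2 and NR3 and -1.30, -0.87 and -1.29 in R1, R2 and R3. The group means differed by -0.063 on this scale, where the edgeR log2 difference was 0.67. With the marker lists exchanged the differences were also small. Icam2 differed by 0.12 relative to pan-leukocyte markers and Selplg by -0.20 relative to endothelial markers. These values therefore do not tell which cells carried either transcript. Pan-leukocyte markers summed to 716 to 1505 CPM in the non-responsive and 351 to 776 CPM in the responsive tumours. NR2, where Icam1, Icam2, Selp and Selplg were highest, also had the highest sums of endothelial (1553 CPM), pan-leukocyte (1505 CPM), T cell (130 CPM) and B cell markers (52.3 CPM). In the other 5 tumours the T cell sum was 19.7 to 28.8 CPM and the B cell sum 10.3 to 16.6 CPM. All 7 T cell, 5 B cell, 7 macrophage and 5 neutrophil markers tested had log2 differences above 0. Without NR2 this held for 4 of 7, 3 of 5, 6 of 7 and 3 of 5. The T cell median went from 1.30 to 0.12 and the B cell median from 1.12 to 0.27 without that tumour, the macrophage median from 0.41 to 0.37 and the neutrophil median from 0.51 to 0.78. Fibroblast markers summed to 3446 to 4268 CPM against 3557 to 4158 CPM, with 4 of 8 above 0. Single genes moved in opposite directions. Without overlap, Col1a1 (1.06) and Col1a2 (1.02) were higher, and Dcn (-1.08) and Dpt (-2.23) were lower. Pericyte and smooth muscle markers summed to 1378 to 3249 CPM against 990 to 3750 CPM, with 6 of 9 above 0. At an unadjusted edgeR p under 0.05, 2 were higher, Pdgfrb (1.45, with overlap) and Notch3 (0.87, without), and 0 lower. Of all genes, 6.79% were higher at that p. The part of these cell types in the adhesion values was not tested.

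**Figure D3:**
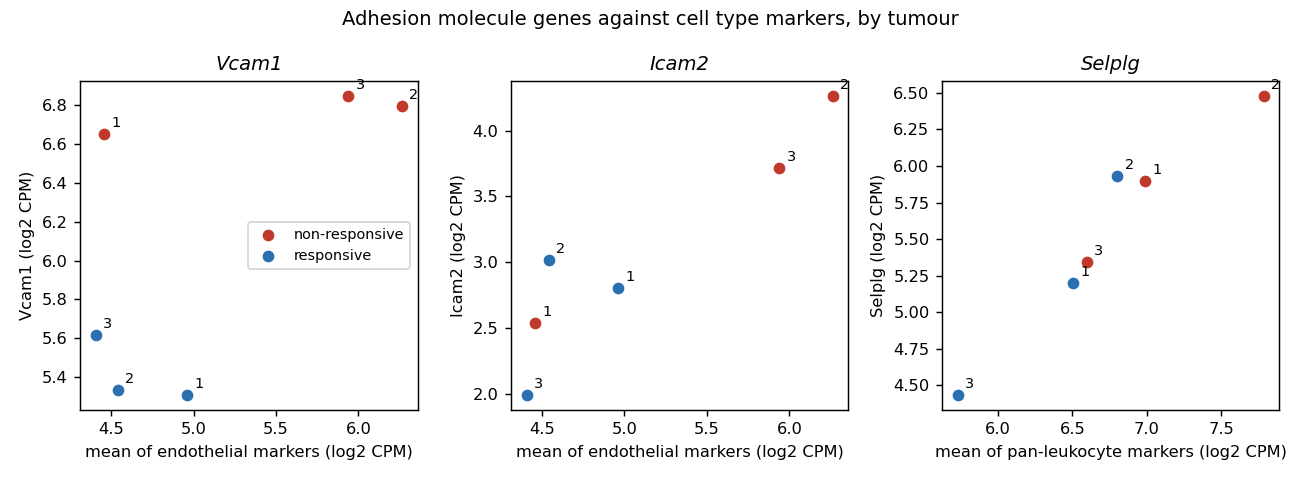
Both axes are in log2 CPM, with 1 numbered point per tumour, for Vcam1 and Icam2 against the mean of the endothelial markers and for Selplg against the mean of the pan-leukocyte markers. Icam2 and Selplg are highest in NR2 and lowest in R3, as are the means of their markers, while Vcam1 in NR1 has a high level (100.5 CPM) at a marker mean of 4.46, within the responsive range of 4.41 to 4.96.

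The genes whose log2 CPM was most like each member over the 6 tumours were taken from 13069 genes by Pearson r, as a description without a test. For Vcam1 they were Prkaa1, Etaa1, Vcan, Ccdc93 and Timp3 (r from 0.991 to 0.994). Of these, Vcan encodes the matrix proteoglycan versican and Timp3 a metalloproteinase inhibitor, and their non-responsive values of 111.6 to 128.1 and 467.8 to 502.7 CPM were as tightly grouped as those of Vcam1. For Icam1 they were Xcr1, a chemokine receptor of cross-presenting dendritic cells, Slc8a1, Cxcr3, a chemokine receptor of activated T cells, Tnfrsf4, which encodes the costimulatory receptor OX40, and Tbc1d23 (0.988 to 0.997). Cxcr3 stood at 8.15 CPM in NR2 and at 1.31 to 1.97 CPM elsewhere, the same single high tumour as for Icam1.

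Icam2 was most like Pla2g7, Inpp1, Mest, Mtpn and Rp2 (0.981 to 0.992). Sele was most like Tbc1d9, Tc2n, AI854703, Nek9 and Zfp46 (0.968 to 0.984), which shared its high values in NR2 and R3. Selp was most like Prkd2, Tent5c, Calhm6, Cd164 and Mctp1 (0.980 to 0.991). Selplg was most like Cyp4f18, Nfe2, Cd300ld, Syk and Cetn3 (0.988 to 0.995), of which Syk encodes a kinase of leukocyte receptor signalling. Among the 6 members themselves the highest r was 0.87, between Icam2 and Selp, followed by 0.82 between Icam1 and Selp. Vcam1 had r of 0.54 with Icam1, 0.58 with Icam2 and -0.011 with Sele. These points share the 6 libraries and their scaling.

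Promoter sequences, taken from RefSeq tables for GRCm38.p6, were found for 4 of the 7 genes, Icam1, Sele, Selp and Madcam1. The 250 bases before the start site are printed for Icam1 and Selp, both highest in NR2, and for Sele, which was also high in R3. Capitals mark letters that match a core of the NF-kB site (GGNNNTTCC) or of the STAT site called GAS (TTCNNNGAA), searched on both strands. The windows, all on the plus strand, are chr9:21015690-21015939 for Icam1, chr1:164047984-164048233 for Sele and chr1:164115014-164115263 for Selp.
Icam1: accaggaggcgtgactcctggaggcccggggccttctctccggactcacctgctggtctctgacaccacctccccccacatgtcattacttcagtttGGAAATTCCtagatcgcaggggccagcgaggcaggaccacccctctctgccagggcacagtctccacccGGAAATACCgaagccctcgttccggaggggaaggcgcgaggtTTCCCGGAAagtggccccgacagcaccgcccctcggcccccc
Sele: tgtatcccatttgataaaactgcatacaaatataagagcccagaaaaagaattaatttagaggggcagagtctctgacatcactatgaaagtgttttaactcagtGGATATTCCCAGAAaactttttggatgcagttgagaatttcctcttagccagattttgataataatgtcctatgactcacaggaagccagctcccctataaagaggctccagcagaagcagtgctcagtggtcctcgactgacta
Selp: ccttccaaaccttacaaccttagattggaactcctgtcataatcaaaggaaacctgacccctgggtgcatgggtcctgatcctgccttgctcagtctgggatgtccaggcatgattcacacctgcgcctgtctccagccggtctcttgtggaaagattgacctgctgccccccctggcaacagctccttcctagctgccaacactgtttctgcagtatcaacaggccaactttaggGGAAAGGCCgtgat

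The Icam1 window holds NF-kB core letters 153 to 145 bases before the start (GGAAATTCC) and, on the other strand, 84 to 76 bases before it, and GAS letters 42 to 34 bases before it. In Sele the NF-kB core at 145 to 137 bases and the GAS letters at 140 to 132 bases before the start overlap and form 1 capital run. Selp has 1 match to the NF-kB core, on the other strand and 14 to 6 bases before the start, and Madcam1 has 2, also on the other strand. Of all 32851 promoter windows of this length in the table, 15.7% hold the NF-kB letters and 7.02% the GAS letters. Distances are counted from the RefSeq start, which for Icam1 lies upstream of the GENCODE gene start given above. A match describes the letters only.

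Genes of the wider adhesion system were read from 7 lists, and no gene of any list passed edgeR at an adjusted p of 5%. At an unadjusted p under 0.05, 6.79% of all genes were higher and 5.79% lower in non-responsive tumours, and the counts below are to be read against these shares. The lists describe the same 6 tumours and the same contrast as the members.

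Leukocyte integrin chains, the counter-receptors of the VCAM-1, ICAM and MAdCAM-1 proteins, had log2 differences above 0 in all 8 of the chains tested (9 listed), with a median of 1.17. The median was 0.78 without NR2. At an unadjusted p under 0.05, 4 of 8 were higher and 0 lower, and 2 were higher without NR2. The chains of the VCAM-1 receptor were among these 4. Itgb1, the widely expressed beta1 chain, was at 702.5, 896.3 and 1019 CPM in NR1, NR2 and NR3 and at 437.1, 524.7 and 433.1 CPM in R1, R2 and R3, without overlap (log2 difference 0.91 ± 0.26, SE). Itga4, the alpha4 chain of leukocytes, was at 21.9, 120.7 and 43.9 CPM against 18.4, 21.1 and 14.8 CPM, and the groups nearly touched. Its log2 difference of 1.78 ± 0.59 was 0.88 without NR2. Itgb7, which pairs with alpha4 to bind MAdCAM-1, differed by 1.13 ± 0.39, with overlap. Among the beta2 integrins, the shared chain Itgb2 was at 113.8, 214.8 and 101.2 CPM against 54.9, 99.5 and 32.7 CPM (1.20 ± 0.47). Its partners Itgal and Itgam differed by 1.01 ± 0.70 and 0.88 ± 0.42, and Itgal by 0.083 without NR2.

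Carriers of selectin ligands and the enzymes that build their sugars had a median log2 difference of 0.38, with 14 of 18 tested above 0. At an unadjusted p under 0.05, 2 were higher and 0 lower. These were Spn, the leukocyte sialophorin CD43, with 1.97 ± 0.57 (SE), and Chst2, a sulfotransferase of selectin ligands, with 1.12 ± 0.39. Spn differed by 1.06 without NR2, where 1 gene of the list was higher at that p, and without NR1 there were 5. Gcnt1, a branching enzyme of the PSGL-1 glycan, differed by -0.22 ± 0.43, and Fut7, the fucosyltransferase that completes selectin ligands, was below the filter with at most 0.821 CPM.

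Genes listed for endothelial junctions and transmigration had a median of 0.43, with 11 of 17 above 0. Which cells carried these transcripts was not tested. At an unadjusted p under 0.05, 3 were higher and 1 lower. The 3 were Cdh5 (VE-cadherin), Pecam1 (CD31) and Mcam, with log2 differences of 1.66 ± 0.55, 1.47 ± 0.49 and 1.26 ± 0.43 (SE). All 3 overlapped between groups through NR1. Without NR2, 0 of the list were higher at that p, and without NR1 there were 8. Cd99l2, a surface protein of the last step of transmigration, was lower without overlap, at 53.2 to 68.3 against 74.6 to 99.98 CPM (-0.63 ± 0.21).

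Arrest and attraction chemokines had a median of 0.28, with 9 of 15 above 0, and 5 were higher and 0 lower at an unadjusted p under 0.05 (3 higher without NR1). Cx3cl1, the membrane-bound chemokine of endothelium, was at 31.7, 54.7 and 51.6 CPM in NR1, NR2 and NR3 and at 16.4, 24.3 and 28.5 CPM in R1, R2 and R3 (1.00 ± 0.30, SE). The interferon-induced Cxcl9 and Cxcl10 differed by 3.73 ± 1.04 and 1.86 ± 0.56. Cxcl9 overlapped between the groups through NR1. Without overlap, 3 of the list were higher and 1 lower, against 9.58% and 8.08% of all genes. The lower gene was Ccl21a, at 12.6 to 140.6 against 157.2 to 304.4 CPM (-1.51 ± 0.75). Ccl19 and Cxcl12 differed by -1.21 ± 0.90 and -0.86 ± 0.52, with overlap. Ackr1, the chemokine-binding receptor of venules, differed by 0.33 ± 0.66. Its log2 difference was -0.45 without NR2.

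Of the cytokines that activate endothelium and their receptors, 12 of 16 passed the filter, and Lta, Ifng, Il4 and Il13 did not. The median was 0.58, with 8 of 12 above 0, and 0.018 without NR2. At an unadjusted p under 0.05, 3 were higher and 0 lower, all of them receptors, and 1 was higher without NR1. Il1r1, the interleukin-1 receptor, was at 80.0 to 116.6 against 44.6 to 58.9 CPM (0.88 ± 0.22, SE). Il4ra and Tnfrsf1b differed by 0.89 ± 0.34 and 0.89 ± 0.38. Among the inducers themselves, Tnf differed by 0.85 ± 0.60 and Il1b by -0.33 ± 0.85. Il6, Ltb and Il1a differed by 1.19 ± 0.87, 1.01 ± 0.73 and -0.28 ± 0.63.

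NF-kB and IRF regulators had a median of 0.13, with 11 of 16 above 0, and 3 were higher and 0 lower at an unadjusted p under 0.05. These were the NF-kB subunits Rel (0.81 ± 0.30, SE) and Nfkb1 (0.47 ± 0.20) and the feedback inhibitor Tnfaip3 (0.74 ± 0.28). Without NR2, 0 of the list were higher at that p. The subunits did not move together. Rela was lower without overlap, at 63.0 to 75.7 against 81.85 to 91.8 CPM (-0.38 ± 0.17), and Relb and Nfkb2 differed by -0.13 ± 0.21 and 0.012 ± 0.23. In the list, 3 genes were higher and 2 lower without overlap, against 9.58% and 8.08% of all genes. Nfkbia, the inhibitor that NF-kB itself induces, was at 56.3 to 77.3 CPM in the non-responsive and 57.7 to 77.1 CPM in the responsive tumours (-0.0021 ± 0.21). Irf1 differed by 0.51 ± 0.28.

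Genes that shed adhesion molecules from the cell or anchor them to actin had a median of 0.41, with 5 of 8 above 0, and 2 were higher and 0 lower at an unadjusted p under 0.05 (1 higher without NR2). Adam17, a protease that sheds VCAM-1, was at 80.2, 99.97 and 97.5 CPM in NR1, NR2 and NR3 and at 49.9, 58.5 and 59.1 CPM in R1, R2 and R3 (0.73 ± 0.18, SE). Rdx, encoding the actin linker radixin, was at 146.1 to 183.8 against 99.2 to 119.8 CPM (0.51 ± 0.19).

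**Figure D4:**
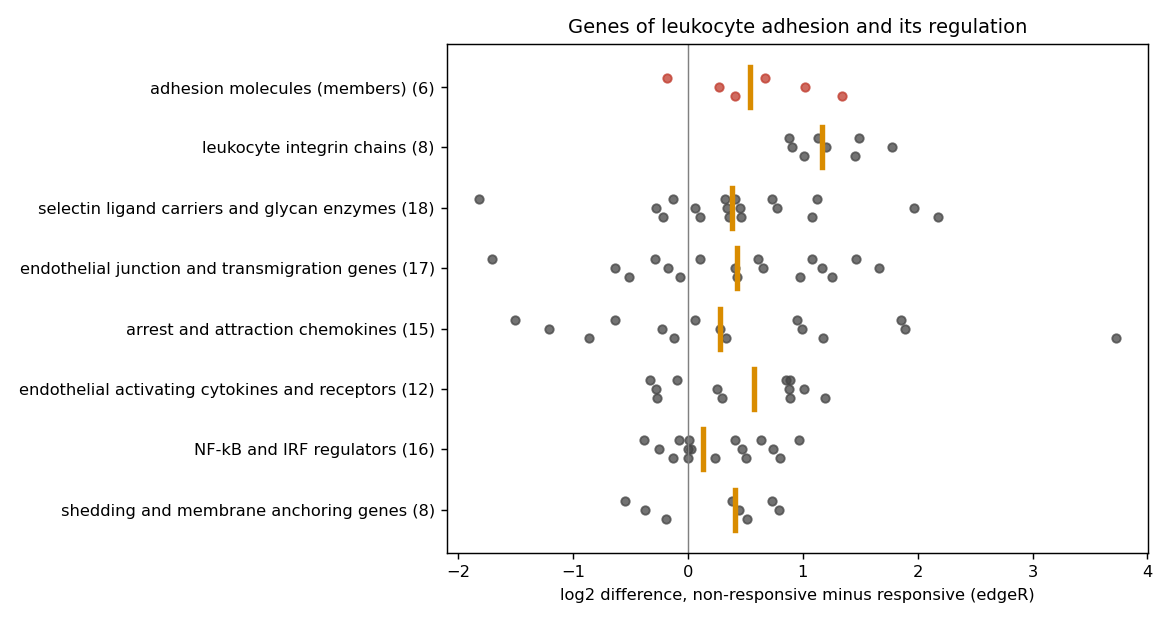
Each point is the edgeR log2 difference (x axis, non-responsive minus responsive) of 1 gene that passed the filter, in rows by list with the number of genes, and the orange bar is the list's median. All 8 integrin chains lie above 0 (median 1.17), and the 6 adhesion genes, in red, run from -0.19 to 1.34.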

How the data were processed

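The members and all gene lists were chosen with earlier results of these data known. RNA from 6 tumours was extracted with TRIZOL and made into libraries with an Illumina TruSeq kit, per the labels' protocols. Per the file headers, the authors deposited 1 estimated count and 1 FPKM value per gene and tumour. The build is mm10, per the submitters' processing notes. For the aligner, counting tool, strand setting and annotation, nothing is given in the sources used here. Without the strand setting, reads of Vcam1, Icam1 and Selp cannot be told apart from those of antisense genes that overlap them. Gene coordinates are from GENCODE M21 (GRCm38, counted from 1).

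Estimated (expected) counts, of which 8.19 to 9.99% per tumour were not whole, were rounded. They were tested over 14505 genes with edgeR 4.0.16 in R 4.3.3 (TMM, default filter, robust quasi-likelihood test, two-sided, Benjamini-Hochberg at 5%). Alternatives used DESeq2 1.42.0, limma 3.58.1 (voom, and log2(FPKM + 1) on the authors' FPKM values of at least 1 in 3 tumours), other scalings and filters, a replicate block and left-out tumours. DESeq2 gave no adjusted p for 3265 genes, which stayed missing. List genes were named by up to 3 of smallest p per direction among those under 0.05, with some always given, and 1 gene that the rule selects is not reported here. Likeness and marker-relative values use log2 CPM with a prior count of 2. The edgeR fit was also tested on simulated data with known changes.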

Additional observations from a re-analysis of the deposited data

How the results depend on the processing

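There were 94 alternative values for the log2 differences of the 6 members. Of these, 84 kept their sign and moved by less than that gene's own SD between replicates. A further 9 changed sign, and 1 kept its sign but moved by more than that SD. A wide SD makes this limit easy to meet, so the count is no measure of stability. The 84 include Sele at -1.10 and Icam1 at 0.096, both without NR2, and Selplg at 0.18 by limma-voom. The Vcam1 difference kept its sign in every alternative run, from 1.28 to 1.45 when 1 tumour was left out. It moved to 0.43 relative to the mean of endothelial markers, taken as a difference of mean log2 CPM and not as an edgeR estimate. On that relative scale Icam1 (-0.56), Icam2 (-0.018), Selp (-0.73) and Selplg (-0.20) changed sign, since the markers themselves were higher by 0.92 in non-responsive tumours. Selplg was 0.18 by limma-voom with quality weights, against 0.67. Sele changed sign with limma-voom (0.12) and with DESeq2 without NR1 (0.22). Leaving out 1 tumour gave -1.10 to 0.67 for Sele, -0.13 to 0.51 for Selp, 0.096 to 0.56 for Icam1, 0.61 to 1.36 for Icam2 and 0.35 to 1.11 for Selplg. Sele could not be fitted under the stricter filter or on FPKM, and Madcam1 is given as counts only.

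The number of genes past the threshold was 0 by edgeR (1825 at an unadjusted p under 0.05), and 0 when any 1 tumour was left out. DESeq2 called 447 genes, and 1966 without NR1, an alternative chosen after seeing the data. The causes were not tested. Deviations from the group mean had correlations of -0.11, -0.087 and -0.024 between same-numbered tumours. Between tumours of different number they were -0.12 to 0.19. Deviations cancel within each group, which holds these correlations low on average. They therefore cannot decide whether same-numbered tumours shared a batch or processing. With the replicate number as a block edgeR called 0 genes (1602 at an unadjusted p under 0.05), with 1.35 for Vcam1, 0.36 for Icam1, 0.93 for Icam2, -0.37 for Sele, 0.20 for Selp and 0.72 for Selplg. Low counts limit Sele and Madcam1.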
